A study of Mus musculus with 18 samples.

Results

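The expression of Ccr2, Cd28, Gpr141 and Tagap1, 4 genes best known from leukocytes, was followed across 6 groups of RN2 leukaemia cells that carried a base editor or 1 of its controls. The 4 genes were named outright, out of 56748 genes in the count table, because their levels appeared to split cells with an active deaminase from cells without it: they were chosen by their measured levels in these same libraries. That split is therefore given only as a description, with no test. All 4 passed the filter on low counts, as did 14985 genes in all, and none of them had fewer than 567 counts in a library.

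RN2 is a mouse acute myeloid leukaemia (AML) line driven by the MLL-AF9 fusion and NrasG12D, and its genotype is otherwise labelled wild type, so the driver lesions are common to every group. Cells were transduced with lentivirus and sorted on day 5. nCas9 is Cas9 nickase, which cuts 1 DNA strand and carries no deaminase. Intact BE is a base editor, the nickase joined to an evolved APOBEC1 deaminase (evoA1) that converts cytosine in DNA. The catalytic mutant is the same editor with an inactivated deaminase, named E63A in the count table. seBE is a switchable base editor that rapamycin, an inhibitor of mTORC1, turns on. Intact BE and seBE cells received 1 nM rapamycin or vehicle over the last 24 h. The treatment field also gives vehicle for nCas9 and the catalytic mutant, whereas the treatment protocol names drug or vehicle for intact BE and seBE alone. The stated purpose was to look in gene expression for mechanisms of editor toxicity. Each group had 3 libraries, called biological replicates in the labels. Nothing states separate cultures or transductions, so p-values measure only the spread between these samples, which may be technical. All cells came from 1 cell line.

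CCR2 is a G protein-coupled receptor that binds the chemokine CCL2 and its relatives and guides monocytes out of bone marrow and into inflamed tissue. GPR141 is a G protein-coupled receptor without an agreed ligand, found mainly on myeloid cells. CD28 is the costimulatory receptor of T cells: when bound by CD80 or CD86 on another cell it recruits phosphoinositide 3-kinase and GRB2. TAGAP, which is induced on T cell activation, is a GTPase-activating protein, and mouse Tagap1 is a close copy of its gene. Leukaemias driven by MLL-AF9 resemble progenitors of monocytes and granulocytes.

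The gene models came from GENCODE M21 on GRCm38, an older build than the GRCm39 used by the submitters. Ccr2 (ENSMUSG00000049103) lies at chr9:124101950-124113557 on the plus strand. Its coding sequence is 373 codons, stop included, and its longest coding transcript has 2 exons. Cd28 (ENSMUSG00000026012) lies at chr1:60716800-60773359 on the plus strand, with 218 codons in a transcript of 4 exons. Gpr141 (ENSMUSG00000053101) lies at chr13:19749682-19824257 on the minus strand, with 305 codons and 5 exons. Tagap1 (ENSMUSG00000052031) lies at chr17:6955011-6961156 on the minus strand, with 505 codons and 4 exons. The 4 genes are thus on 4 different chromosomes.

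Promoter windows, from 250 bases before to 50 bases after the annotated start, were available from RefSeq on GRCm38.p6 for 3 of the 4 genes. They are shown as background on the genes, and no window was available for Cd28. Any link between these sequences and the levels of the genes was not tested. Each is printed 5′ to 3′ on the strand of its gene. Capitals mark every match, on either strand, to the GC box GGGCGG, the TATA motif TATAAA, the RUNX motif TGTGGT or the PU.1 motif GAGGAA. On the printed strand a GC box of the other strand reads CCGCCC. The RefSeq start of Ccr2 lies downstream of its GENCODE start at chr9:124101950, so most of the Ccr2 window falls inside the GENCODE gene. The windows are chr9:124101933-124102232 for Ccr2 (plus strand), chr13:19824208-19824507 for Gpr141 (minus strand) and chr17:6961107-6961406 for Tagap1 (minus strand).
Ccr2: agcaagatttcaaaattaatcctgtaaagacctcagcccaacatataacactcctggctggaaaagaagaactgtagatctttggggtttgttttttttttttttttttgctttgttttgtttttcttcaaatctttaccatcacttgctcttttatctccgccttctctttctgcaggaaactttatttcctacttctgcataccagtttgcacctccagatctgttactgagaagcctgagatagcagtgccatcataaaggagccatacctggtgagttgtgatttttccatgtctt
Gpr141: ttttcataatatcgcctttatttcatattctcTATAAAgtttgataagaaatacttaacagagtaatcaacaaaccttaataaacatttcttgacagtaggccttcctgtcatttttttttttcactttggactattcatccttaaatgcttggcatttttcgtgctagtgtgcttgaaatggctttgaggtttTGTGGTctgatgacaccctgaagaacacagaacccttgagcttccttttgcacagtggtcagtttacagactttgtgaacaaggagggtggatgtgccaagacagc
Tagap1: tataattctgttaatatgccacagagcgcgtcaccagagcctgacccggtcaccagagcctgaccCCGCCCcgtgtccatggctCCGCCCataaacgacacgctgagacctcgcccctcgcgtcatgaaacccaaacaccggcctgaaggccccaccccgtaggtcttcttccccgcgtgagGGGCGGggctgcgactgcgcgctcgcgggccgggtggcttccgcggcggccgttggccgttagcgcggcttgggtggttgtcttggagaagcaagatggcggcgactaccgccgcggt

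The Tagap1 window is a CpG-rich promoter, and the other 2 are not. It held 34 CpG dinucleotides at 66.3% G or C, against 1 CpG and 38% in Ccr2 and 2 CpG and 37.3% in Gpr141. Over all 32851 windows the median was 7 CpG and 52.7% G or C. Tagap1 held 3 matches to the GC box, which occurs in 35.7% of all windows, and Ccr2 and Gpr141 held none. Gpr141 held 1 TATAAA, at position -218 from the start and present in 13.6% of windows, and 1 TGTGGT at position -56, present in 16.8%. Neither motif was in the other 2 windows. None of the 3 held GAGGAA, which occurs in 28.3% of windows.

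Further motifs were searched on both strands and are not in capitals. The C/EBP motif TTNNGNAA, in 40.7% of all windows, had 1 match in Ccr2, 1 in Gpr141 and none in Tagap1. The MYB motif AACTG, in 44.8%, had 2 matches in Ccr2, 1 in Gpr141 and none in Tagap1. AGATAA, the GATA motif, was in 11.2% of windows and had 1 match, in Ccr2. The short ETS core GGAA, which occurs in 96% of windows and lies within GAGGAA, was in all 3. The IRF motif, the AP-1 motif TGANTCA and the CRE motif TGACGTCA had no match in the 3 windows, and occur in 3.44%, 7.81% and 1.79% of windows. A match describes letters and is not evidence of a bound site.

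Library totals ran from 13835979 to 23284932 counts. nCas9 replicate 2 stood apart from the other 17 libraries on the second principal component, at -63.0 against -21.5 to 24.5, and Malat1 was at 314 CPM in catalytic mutant replicate 3 against 1061 to 1819 elsewhere. CPM are the counts after edgeR's scaling to library size. All 11 leukaemia markers, among them Myb, Meis1 and Hoxa9, were expressed, with a sum of 3077 to 3765 CPM. T cell markers summed to 3.08 to 7.998 CPM over 19 genes, 17 of which had a mean below 1 CPM, and Cd3e, Cd3g, Trbc1, Trbc2, Cd8a and Cd2 were at 0 in every library. The 6 NK markers summed to 0.864 to 2.89 CPM, with Ncr1 and Gzma at 0. The 6 B cell markers summed to at most 1.71 CPM, with Ms4a1, Pax5 and Ebf1 at 0.

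Ccr2 was among the better expressed genes of these cells. By mean CPM it stood at percentile 91.4 of tested genes, and its counts ran from 1591 to 5428. Ccr2 was at 198, 162 and 175 CPM in the 3 nCas9 libraries, and at 202, 176 and 168 CPM in intact BE under vehicle. It was at 124.7, 112 and 106 CPM in the catalytic mutant and at 129, 121 and 132 CPM in seBE under vehicle. With rapamycin it was at 238, 206 and 209 CPM in intact BE and at 122, 146 and 153 CPM in seBE. The 9 libraries of nCas9 and intact BE, at 162 to 238 CPM, lay above all 9 of the catalytic mutant and seBE, at 106 to 153 CPM. How many of all tested genes were divided in this way was not counted.

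For Ccr2 this was not a split of active from inactive deaminase, since the nCas9 libraries, which have no deaminase, overlapped those of intact BE under vehicle. The mean was 178 ± 18.3 CPM for nCas9 (SD, n = 3), while the vehicle arm of intact BE was at 182 ± 17.8 CPM, a difference of 0.03 ± 0.0890 on the log2 scale (SE). Between intact BE under vehicle and the catalytic mutant, the pair of constructs that differ in the deaminase's activity, the log2 difference in Ccr2 was 0.67 ± 0.0903. Ordered by mean, intact BE with rapamycin came first at 218 ± 17.8 CPM, followed by intact BE under vehicle, nCas9, seBE with rapamycin (140 ± 16.1), seBE under vehicle (127 ± 5.64) and the catalytic mutant (114 ± 9.36). Neighbouring groups in that order overlapped, except that intact BE with rapamycin lay above intact BE under vehicle and nCas9 lay above seBE with rapamycin.

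**Figure D1:**
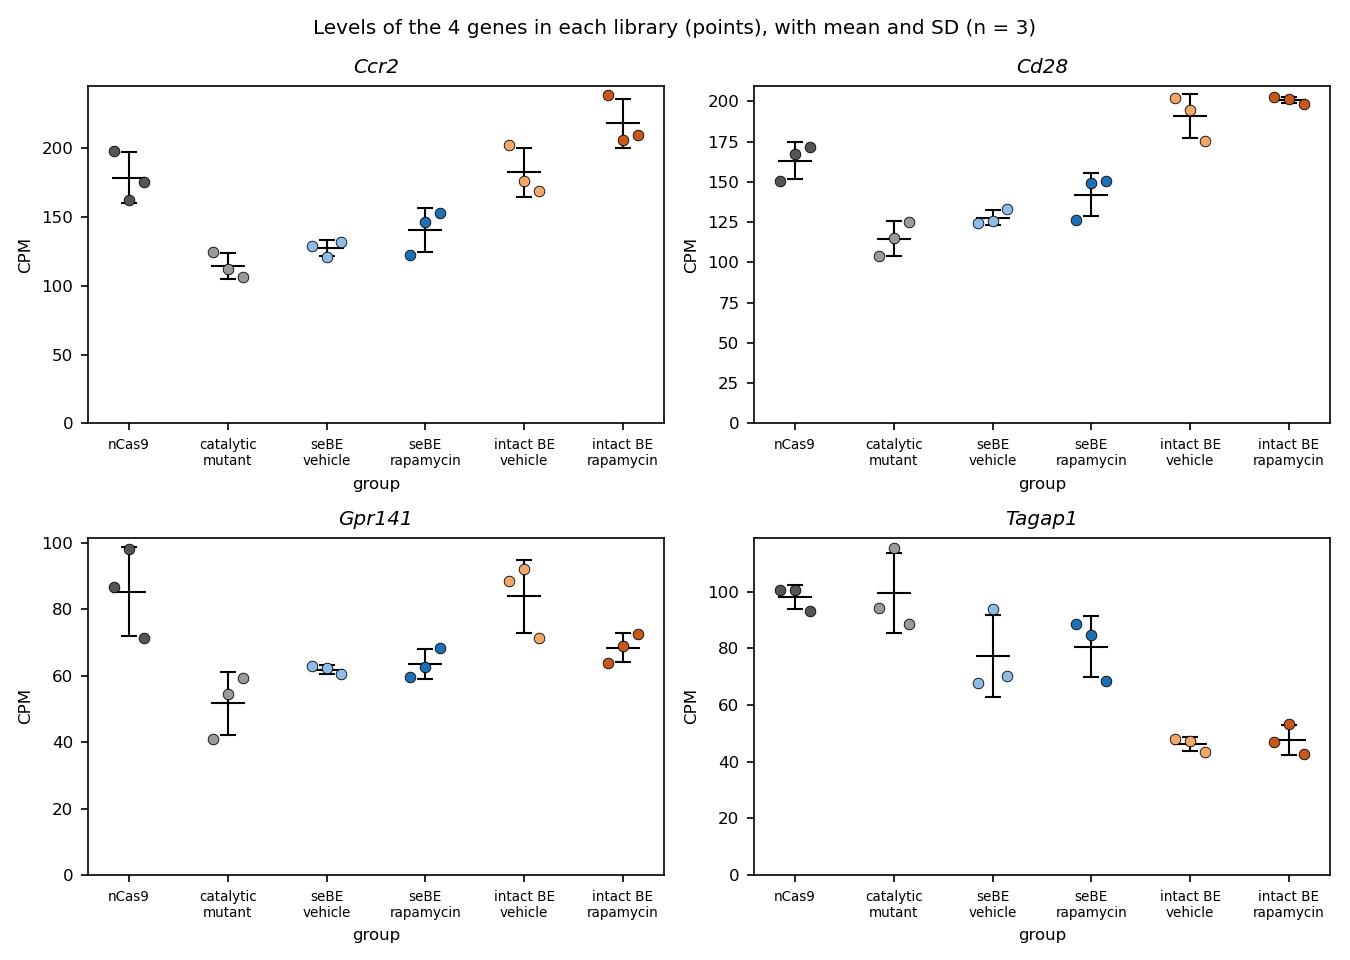
Levels of Ccr2, Cd28, Gpr141 and Tagap1 in CPM (y axis, from 0) in each of the 6 groups (x axis); points are libraries, the long bar is the mean and the whiskers are the SD (n = 3). Ccr2, Cd28 and Gpr141 have their lowest mean in the catalytic mutant, and Tagap1 is lowest in the 6 intact BE libraries, at 42.7 to 53.3 CPM.

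Gpr141, the other G protein-coupled receptor, stood at percentile 76.1 of tested genes, with 567 to 1604 counts. It was at 86.6, 98.0 and 71.3 CPM in nCas9, and at 41.0, 54.6 and 59.3 CPM in the catalytic mutant. Intact BE gave 88.4, 92.0 and 71.5 CPM under vehicle and 63.8, 69.0 and 72.5 CPM with rapamycin. seBE gave 62.8, 62.3 and 60.4 CPM under vehicle and 59.5, 62.6 and 68.3 CPM with rapamycin. As with Ccr2, the nCas9 range overlapped that of intact BE under vehicle and the catalytic mutant had the lowest mean, and here the ranges of nearly all neighbouring groups overlapped. The exception was the catalytic mutant, whose 3 libraries lay below the 3 of seBE under vehicle.

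By mean, Gpr141 ran from 85.3 ± 13.4 CPM in nCas9 and 84.0 ± 10.97 in the vehicle arm of intact BE, through 68.4 ± 4.41 in intact BE with rapamycin, 63.5 ± 4.45 in seBE with rapamycin and 61.8 ± 1.27 in seBE under vehicle, to 51.6 ± 9.51 in the catalytic mutant (SD, n = 3). The 6 intact BE libraries (63.8 to 92.0 CPM) overlapped the 6 of nCas9 and the catalytic mutant (41.0 to 98.0 CPM). The levels of Gpr141 therefore did not split active from inactive constructs either.

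Cd28, the costimulatory receptor, was expressed nearly as highly as Ccr2, at percentile 91.1 of tested genes with 1436 to 4611 counts. It was at 151, 167 and 172 CPM in nCas9 and at 104, 115 and 125.2 CPM in the catalytic mutant. In intact BE it was at 202, 194 and 176 CPM under vehicle and at 202, 201 and 198 CPM with rapamycin. In seBE it was at 124.5, 126 and 133 CPM under vehicle and at 126, 149 and 151 CPM with rapamycin. Here the 6 intact BE libraries, at 176 to 202 CPM, did lie above the 6 of nCas9 and the catalytic mutant, at 104 to 172 CPM. The lowest intact BE library and the highest nCas9 library stood at the edge of that gap, at 175.6 and 171.8 CPM. The gap also depended on the processing. Between intact BE under vehicle and nCas9 the log2 difference was 0.22, and 0.10 once a trend on transcript length and GC content was removed.

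The mean of Cd28 was 201 ± 2.02 CPM in intact BE with rapamycin, 191 ± 13.7 under vehicle, 163 ± 11.2 in nCas9, 142 ± 13.6 in seBE with rapamycin, 128 ± 4.71 in seBE under vehicle and 115 ± 10.7 in the catalytic mutant (SD, n = 3). Of neighbours in this order, only intact BE under vehicle and nCas9 did not overlap. Cd28 is known as a T cell gene, and the T cell markers Cd3e, Cd3g, Trbc1 and Trbc2 were at 0 counts in all libraries.

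Tagap1, the GTPase-activating protein, had the clearest division by construct. It was at 101, 101 and 93.1 CPM in nCas9 and at 94.2, 115 and 88.6 CPM in the catalytic mutant. It was at 47.9, 47.4 and 43.2 CPM in intact BE under vehicle and at 46.8, 53.3 and 42.7 CPM with rapamycin. seBE gave 67.8, 94.0 and 70.3 CPM under vehicle and 88.6, 84.8 and 68.5 CPM with rapamycin. All 6 intact BE libraries (42.7 to 53.3 CPM) lay below all 6 of nCas9 and the catalytic mutant (88.6 to 115 CPM). The 6 seBE libraries (67.8 to 94.0 CPM) lay above intact BE and partly within the range of the inactive constructs.

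Mean Tagap1 was 99.4 ± 14.1 CPM in the catalytic mutant, 98.1 ± 4.31 in nCas9, 80.6 ± 10.7 in seBE with rapamycin, 77.4 ± 14.5 in seBE under vehicle, 47.6 ± 5.33 in intact BE with rapamycin and 46.2 ± 2.53 under vehicle (SD, n = 3). Per kilobase of exon, Tagap1 was the highest of the 4 genes in nCas9, at 42.4 CPM per kb against 26.4 for Ccr2, 26.7 for Cd28 and 14.3 for Gpr141. In intact BE under vehicle, on the same scale, it was at 20.0 CPM per kb, below Cd28 at 31.2 and Ccr2 at 26.9. Intact BE was thus apart from nCas9 and the catalytic mutant for Cd28 and Tagap1, in opposite directions, and for 2 of the 4 genes in all. The share of all tested genes divided in this way was not counted. For intact BE under vehicle alone, 38% of all tested genes did not overlap nCas9, and 37.8% did not overlap the catalytic mutant. seBE with rapamycin did not follow intact BE. Cd28 in these seBE libraries (126 to 151 CPM) lay within the range of nCas9 and the catalytic mutant, and Tagap1 (68.5 to 88.6 CPM) lay above all of intact BE. The 2 editors are not alike in exposure, since seBE had its switch for the last 24 h only and intact BE needs none. Editing itself was not measured here. In bulk libraries such as these, fewer cells with a transcript and less of it per cell cannot be told apart.

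Levels of Tagap1 ran with the percentage of each library's counts that came from mitochondrial transcripts. That share was 1.78 to 2.02% in intact BE under vehicle and 1.99 to 2.25% with rapamycin, against 4.43 to 5.54% in nCas9 and 3.73 to 5.47% in the catalytic mutant. In seBE it was 2.66 to 4.10% under vehicle and 2.99 to 4.61% with rapamycin. The libraries low in Tagap1 were those with a low mitochondrial share, and its part in the level of Tagap1 was not tested.

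**Figure D2:**
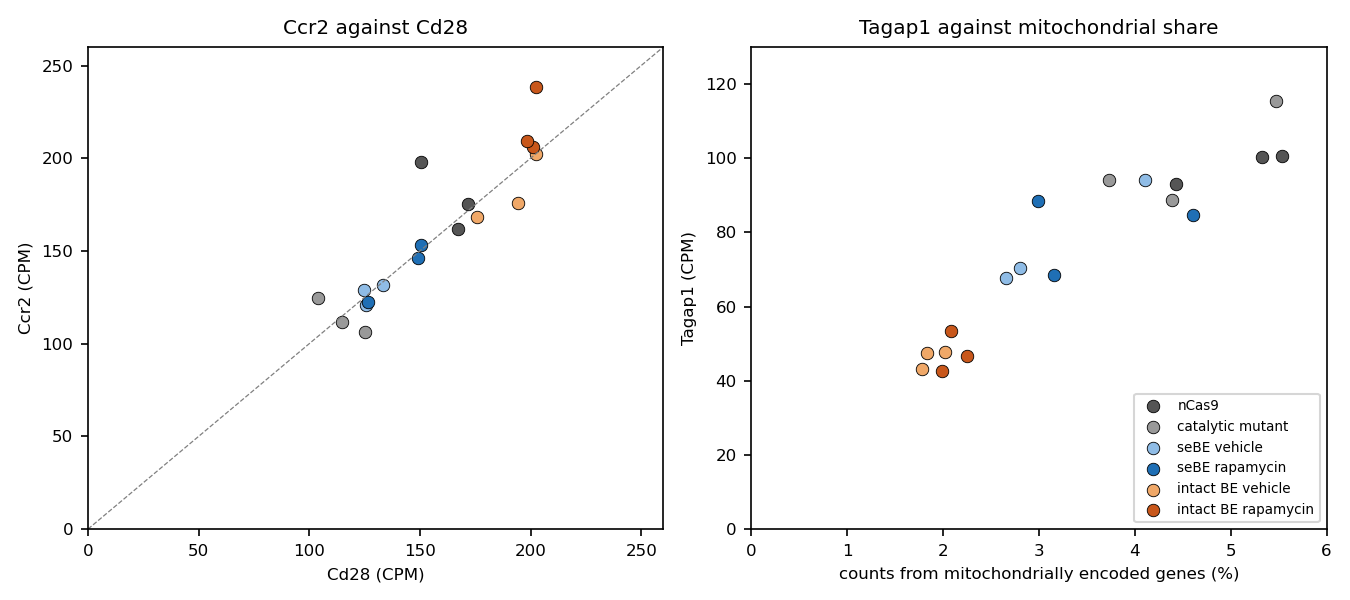
Left, Ccr2 against Cd28 (both in CPM) in the 18 libraries, with a dashed line of equal CPM. Right, Tagap1 (CPM) against the percentage of counts from mitochondrially encoded genes. Colours mark the 6 groups, and the 6 intact BE libraries lie at 42.7 to 53.3 CPM of Tagap1 and 1.78 to 2.25% mitochondrial counts, the lowest of all on both axes.

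The catalytic mutant and nCas9 both lack deaminase activity, but the 4 genes were named with their levels in both in view, and a low level in the mutant could itself lead to a gene being named. This contrast is therefore given for them as a description, with no test. The log2 difference of Ccr2, the catalytic mutant less nCas9, was -0.64 ± 0.0902 (SE), with 3 of 3 libraries below all of nCas9. It was -0.51 ± 0.0813 for Cd28 and -0.72 ± 0.114 for Gpr141, again with 3 of 3 libraries below all of nCas9. For Tagap1 it was 0.02 ± 0.112, and the groups overlapped.

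Of all tested genes, 4.3% passed edgeR's quasi-likelihood test between these groups in either direction, 2.06% fell, and 10.1% had all catalytic mutant libraries below all nCas9 libraries. Without nCas9 replicate 2, the library that stood apart, the differences were -0.70, -0.48 and -0.60 for Ccr2, Cd28 and Gpr141. Without catalytic mutant replicate 3 they were -0.59, -0.57 and -0.82. The number of all genes called went from 644 with all libraries to 122 without nCas9 replicate 2.

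Marker sums also differed between these groups. The summed level of 16 monocyte and mature myeloid markers, 13 of them above 1 CPM and none at 0, was 2318 to 2648 CPM in the catalytic mutant and 2679 to 2878 CPM in nCas9, without overlap. Ly6c2 and Ms4a3 made up most of that sum, with means of 1153 and 689 CPM over all libraries. Of the 14 tested, only Ms4a3 fell in edgeR, by 0.28 on the log2 scale (edgeR, adjusted p = 0.0366), and none rose, with a list median of -0.07. DESeq2 called 2 lower and none higher. The 11 leukaemia markers were higher in sum, at 3436 to 3636 CPM in the catalytic mutant and 3077 to 3229 CPM in nCas9, also without overlap. Of these, 2 rose in edgeR and 4 in DESeq2, none fell, and the list median was 0.15. The part of either marker list in the levels of Ccr2, Cd28 and Gpr141 was not tested.

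**Figure D3:**
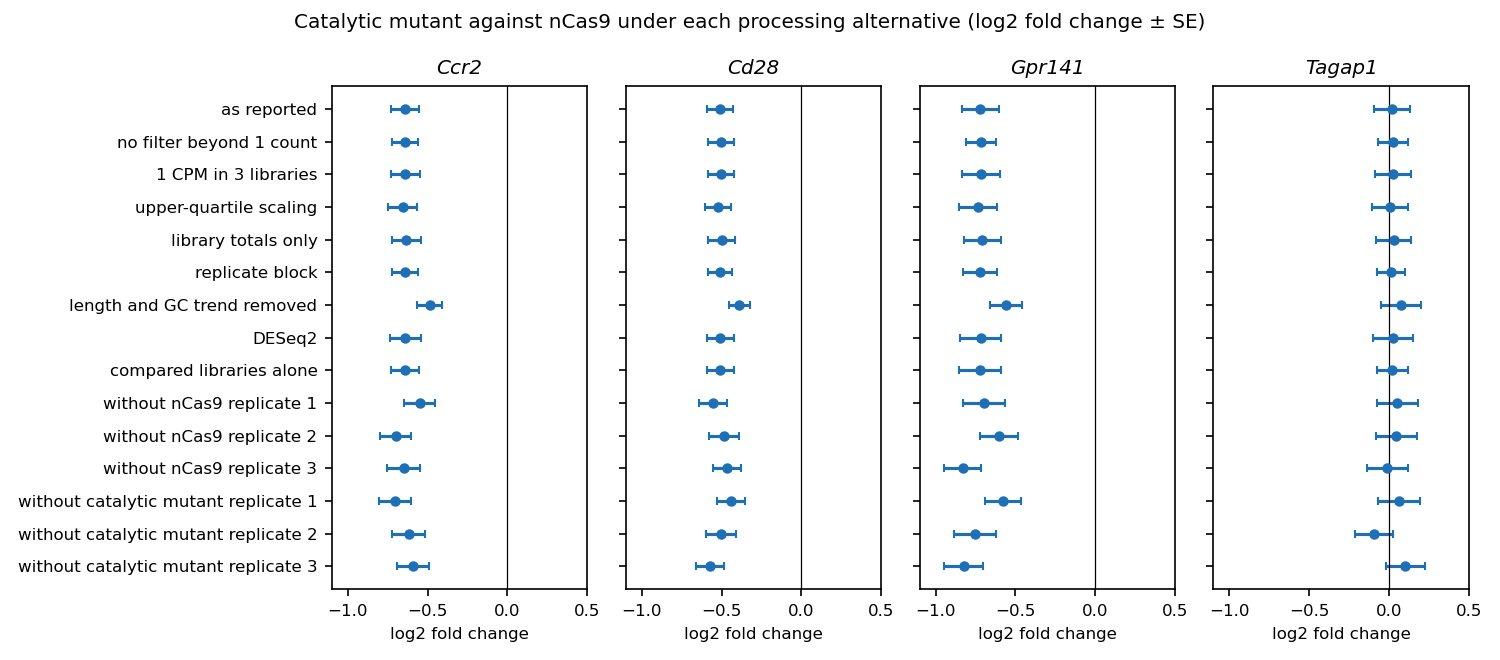
Log2 fold change ± SE of the catalytic mutant against nCas9 (x axis) for the 4 genes as reported and under each of 14 processing alternatives (y axis). Ccr2, Cd28 and Gpr141 stay below 0 in every row, between -0.83 and -0.39, and Tagap1 lies on both sides of 0.

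The comparisons that cross from active to inactive deaminase follow from the levels and are descriptions. Intact BE under vehicle, set against the catalytic mutant, was higher by 0.67 ± 0.0903 for Ccr2, 0.73 ± 0.0814 for Cd28 and 0.70 ± 0.114 for Gpr141 on the log2 scale, and lower for Tagap1, at -1.11 ± 0.116. None of the 4 genes overlapped between these groups, as was so for 37.8% of all tested genes, and 21% of genes passed the test. Set against nCas9, intact BE under vehicle had log2 differences of 0.03 ± 0.0890, 0.22 ± 0.0803 and -0.02 ± 0.112 for Ccr2, Cd28 and Gpr141, and -1.09 ± 0.116 for Tagap1. Here Cd28 and Tagap1 did not overlap, against 38% of all tested genes, and 23% of genes passed. Tagap1 was thus lower than in both inactive constructs by a like amount, while each receptor's difference was larger against the catalytic mutant than against nCas9.

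seBE under vehicle lay near the catalytic mutant for the 3 receptors. Its log2 differences from that mutant were 0.16 ± 0.0905 for Ccr2, 0.16 ± 0.0815 for Cd28, 0.26 ± 0.115 for Gpr141 and -0.36 ± 0.113 for Tagap1. Only Gpr141 did not overlap, against 15.2% of all genes, and 0.0267% of genes passed the test between these groups. Against nCas9 the differences were -0.49 ± 0.0897, -0.35 ± 0.0809, -0.46 ± 0.113 and -0.34 ± 0.113 in the same order. The 3 receptors did not overlap there and Tagap1 did, where 22.5% of all genes did not overlap and 4.56% passed.

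Set against intact BE under vehicle, seBE under vehicle had log2 differences of -0.52 ± 0.0898 for Ccr2, -0.58 ± 0.0809 for Cd28, -0.44 ± 0.113 for Gpr141 and 0.75 ± 0.116 for Tagap1. No gene of the 4 overlapped, against 29.4% of all genes without overlap and 3.99% called. With rapamycin in both, the differences were -0.63 ± 0.0890 for Ccr2, -0.50 ± 0.0802 for Cd28, -0.11 ± 0.112 for Gpr141 and 0.76 ± 0.114 for Tagap1. Under the drug, Gpr141 overlapped and the other 3 did not, where 19.6% of all genes did not overlap and 4.69% were called.

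**Figure D4:**
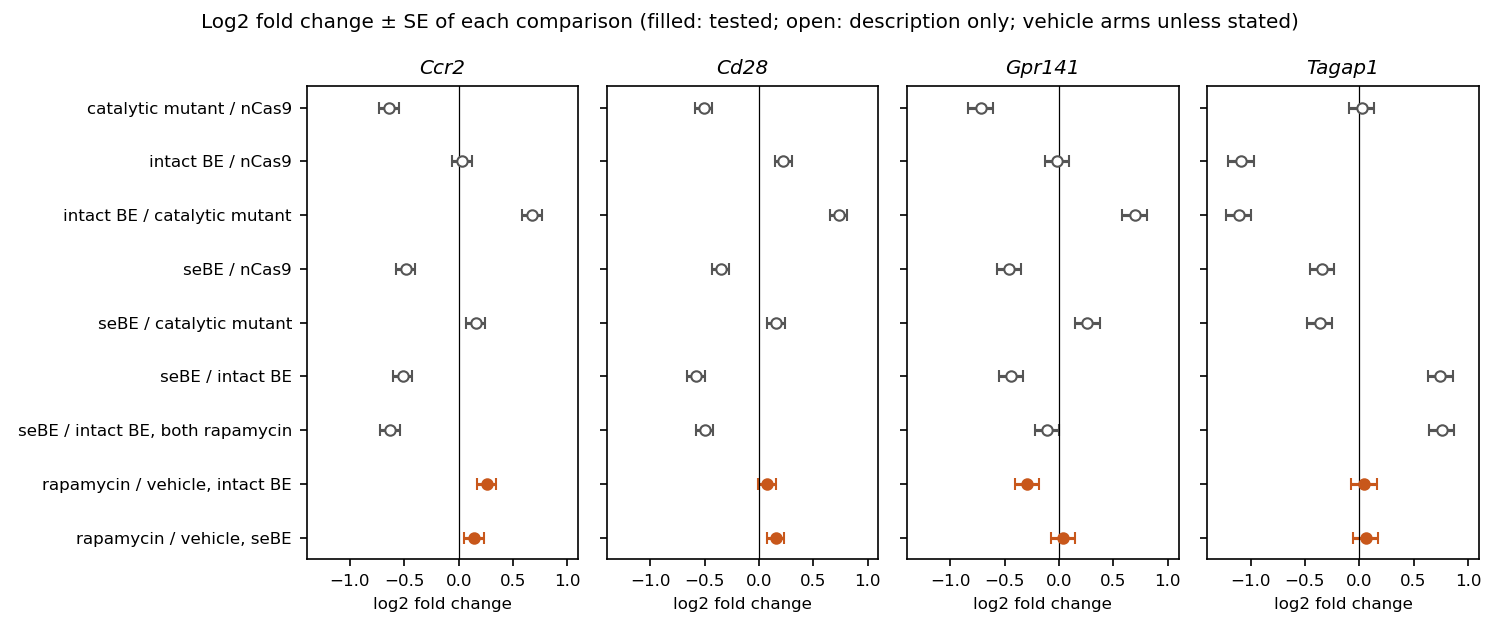
Log2 fold change ± SE (x axis) of the 4 genes in 9 comparisons of groups (y axis); filled points (rapamycin against vehicle) were tested and open points are descriptions, and groups are vehicle arms unless stated. The catalytic mutant lies below nCas9 for Ccr2, Cd28 and Gpr141, and Tagap1 lies at -1.09 and -1.11 for intact BE against nCas9 and the catalytic mutant.

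For rapamycin in intact BE, a contrast within 1 construct, no change of the 4 genes passed the threshold. Both intact BE arms were in view when the 4 genes were named, so p-values for them here are not independent of that choice. For Ccr2 the log2 fold change was 0.26 ± 0.0887 (edgeR, adjusted p = 0.112), with all 3 rapamycin libraries above all 3 vehicle libraries, as for 10.5% of all tested genes in that direction. It passed when the compared libraries were fitted alone, at 0.26 (edgeR, adjusted p = 0.028), and after a trend on transcript length and GC content was removed, at 0.26 (edgeR, adjusted p = 0.0346). For Gpr141 it was -0.29 ± 0.112 (edgeR, adjusted p = 0.174), with overlapping groups. For Cd28 it was 0.07 ± 0.0800 (edgeR, adjusted p = 0.772) and for Tagap1 0.04 ± 0.116 (edgeR, adjusted p = 0.926). Over all genes, 3.32% passed. Summed monocyte markers were 2945 to 3091 CPM with rapamycin and 2684 to 2751 CPM with vehicle, and their part in the level of Ccr2 was not tested.

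Rapamycin in seBE, where it is the switch of the editor, gave log2 fold changes of 0.14 ± 0.0896 for Ccr2, 0.15 ± 0.0808 for Cd28, 0.04 ± 0.113 for Gpr141 and 0.06 ± 0.113 for Tagap1. Each had an adjusted p of 0.999 in edgeR, and none of the 4 had groups without overlap, against 8.06% of all genes. The 4 genes were named with both seBE arms in view, and this contrast may cross the split they were named for. For them these p-values are therefore not independent of that choice. No gene at all passed in this contrast, by edgeR or by DESeq2 (0% of tested genes), and 493 had an unadjusted p under 0.05 in edgeR. The drug effect in seBE less that in intact BE was -0.12 ± 0.126 for Ccr2, 0.08 ± 0.114 for Cd28, 0.33 ± 0.159 for Gpr141 and 0.01 ± 0.162 for Tagap1 (edgeR, adjusted p = 0.943, 0.957, 0.707 and 0.997). Of all genes, 0.187% passed that test of the difference. A difference in drug response between the constructs was not detected for any of the 4, which were named with all of these groups in view.

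Near copies of a gene can share its reads, and how the submitters counted reads that fit 2 genes is not given in the sources used here. Cd28 and Gpr141 shared no 100-base stretch of transcript with another gene. For Tagap1 the share was 46.7%, of which nearly all was with Tagap, and the 2 transcripts were 99.02% identical over 2152 aligned bases. The Tagap1 counts are uncertain in that respect, since reads from shared stretches can be lost or assigned to either copy.

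Tagap itself was low in every group. Its mean was 13.9 ± 1.69 CPM in nCas9, 17.3 ± 2.48 in the catalytic mutant and 11.9 ± 0.270 in intact BE under vehicle (SD, n = 3). It was 11.9 ± 3.07 CPM in intact BE with rapamycin, 11.9 ± 1.33 in seBE under vehicle and 11.97 ± 0.547 with rapamycin. Tagap fell in intact BE against the catalytic mutant, at -0.54 ± 0.174 (edgeR, adjusted p = 0.0239), and was at -0.22 ± 0.174 against nCas9 (edgeR, adjusted p = 0.41). The ratio of Tagap to Tagap1 counts was 0.124 to 0.157 in nCas9 and 0.207 to 0.326 across both intact BE arms. Both copies were thus lower in intact BE than in the catalytic mutant.

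**Figure D5:**
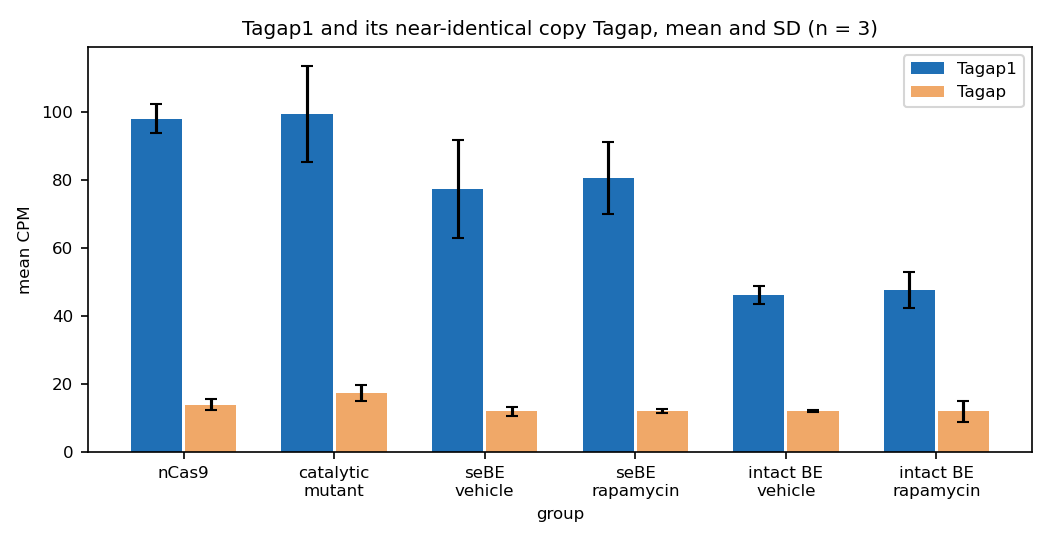
Mean CPM (y axis, from 0) of Tagap1 and of its near-identical copy Tagap in the 6 groups (x axis), with SD whiskers (n = 3). Tagap means lie between 11.9 and 17.3 CPM in every group, while Tagap1 ranges from 46.2 to 99.4 CPM.

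Other relatives of the 4 genes were mostly near silence. Group means were 0.71 to 1.75 CPM for the CD28 antagonist Ctla4, at most 0.56 for the costimulatory receptor Icos and at most 0.38 for Gpr141b. Ccr1, another monocyte chemokine receptor 3 genes away from Ccr2, was well expressed. It fell in the catalytic mutant against nCas9, from 44.9 ± 5.14 to 33.1 ± 1.999 CPM (log2 -0.44 ± 0.126, edgeR, adjusted p = 0.0386). It also passed the test for rapamycin in intact BE, rising from 43.8 ± 7.26 to 71.9 ± 14.9 CPM (0.72 ± 0.122, edgeR, adjusted p = 0.000232).

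The other genes beside the members on the chromosome gave few usable levels. Between Ccr1 and Ccr2, Ccr1l1 and Ccr3 were at 0.0527 and 0.0406 CPM over all libraries. The third gene from Gpr141, Elmo1, which helps activate Rac during cell migration and engulfment, had a mean of 144 CPM. Elmo1 was higher in intact BE under vehicle than in nCas9 (0.43 ± 0.0834, edgeR, adjusted p = 0.000289) and did not pass in the catalytic mutant against nCas9 (0.12 ± 0.0837, edgeR, adjusted p = 0.464). Gm49719, an antisense transcript that overlaps Tagap1, had a mean of 1.69 CPM, and with the strand setting of the count not given, reads of the 2 genes cannot be told apart. Gm19154, which overlaps Gpr141, was at 0.00565 CPM.

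Ccr2 and Cd28 ran closely together. The ratio of their counts was 0.850 to 1.32 over the 18 libraries, with a median of 0.995. Over the 18 libraries the Pearson correlation of log2 CPM was 0.91 for Ccr2 and Cd28, 0.72 for Cd28 and Gpr141 and 0.60 for Ccr2 and Gpr141. It was -0.75 for Cd28 and Tagap1, -0.65 for Ccr2 and Tagap1 and -0.32 for Gpr141 and Tagap1. These points fall into 6 groups that share constructs and processing, and once group means were removed the values for the 3 receptor pairs were 0.15, 0.52 and -0.16 in the order given. The close match of Ccr2 and Cd28 was a match of group levels, with little of it among the libraries of a group. Both genes were named for their group levels in these libraries, so their match is a description.

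The ratio of Tagap1 to Cd28 counts was lowest in intact BE. It was 0.215 to 0.265 in the 6 intact BE libraries, 0.542 to 0.669 in nCas9, 0.708 to 1.00 in the catalytic mutant and 0.455 to 0.749 in seBE. The intact BE range overlapped no other, those of nCas9 and the catalytic mutant did not overlap, and that of seBE overlapped both and spanned all of nCas9. The ratio was formed from 2 genes chosen for their levels in these libraries, and is a description.

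Profiles like each member's were sought among 9766 genes with a mean of at least 5 CPM, over the 18 libraries. The 5 closest to Ccr2 were Tmem156 (r = 0.94), Lcp2 (0.93), Cd28 (0.91), Cd53 (0.89) and Cybb (0.89). Those closest to Cd28 were Tmem170b (0.96), Osbpl8 (0.95), Rtn4 (0.93), Tgfbr1 (0.92) and Cenpc1 (0.92). For Gpr141 the likeness was looser, with Cebpg (0.88), Usp32 (0.84), Dynlt3 (0.84), Smim10l1 (0.83) and Yipf5 (0.83). Tagap1 was most like Tepsin (0.98), ENSMUSG00000095041 (0.97), the mitochondrially encoded mt-Nd1 (0.96), Iffo1 (0.96) and Tcirg1 (0.96). These r values describe libraries that share their groups and carry no test.

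Lcp2, the adaptor SLP-76, which acts downstream of CD28 and antigen receptors, was, like Ccr2, highest in intact BE with rapamycin and lowest in the catalytic mutant. Lcp2 was at 183 ± 2.23 CPM in nCas9, 155 ± 2.83 in the catalytic mutant, 182 ± 11.2 in intact BE under vehicle and 209 ± 6.95 with rapamycin (SD, n = 3). It was at 161 ± 6.22 CPM in seBE under vehicle and at 167 ± 7.14 with rapamycin. Tepsin, the profile closest to Tagap1, was at 42.5 ± 3.68 CPM in nCas9 and 43.7 ± 6.74 in the catalytic mutant against 23.6 ± 0.864 in intact BE under vehicle.

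Among 19 tested genes of CCR2 signalling, 2 rose and none fell in the catalytic mutant against nCas9 in edgeR, where 4.3% of all genes passed, with a list median log2 fold change of 0.15 against 0.00 over all genes. The 2 were Prex1, a Rac exchange factor (0.30 ± 0.0824, edgeR, adjusted p = 0.0295), and Gnai2, an inhibitory G protein subunit (0.27 ± 0.0738, edgeR, adjusted p = 0.0298). Of 6 other chemokine receptors tested, Ccr1 fell in edgeR and none rose, while DESeq2 called 1 lower and 1 higher (list median -0.35). None of 22 other leukocyte G protein-coupled receptors passed in edgeR or in DESeq2, 5 had an unadjusted p under 0.05 in edgeR, and the list median was -0.19.

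In the same contrast, 2 of 20 tested genes of the CD28 family and its signalling rose and 1 fell in edgeR, against the same 4.3% (median 0.06). Akt1, a kinase downstream of phosphoinositide 3-kinase, rose by 0.36 ± 0.0787 (edgeR, adjusted p = 0.0067), and Pik3cd, a catalytic subunit of that enzyme, by 0.35 ± 0.0772 (edgeR, adjusted p = 0.00769). Lcp2 fell by 0.23 on the log2 scale (edgeR, adjusted p = 0.0446). The levels of Cd28 and Ccr2 were thus lower in a contrast in which Akt1, Pik3cd, Prex1 and Gnai2 rose and Lcp2 and Ccr1 fell. Most genes of these lists were not called in either direction. Calls over all genes in this contrast went from 644 to 122 without nCas9 replicate 2. Whether the named calls stay without that library was not tested.

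When intact BE under vehicle was set against nCas9, 23% of all genes passed, and these lists held calls in both directions. In CCR2 signalling 6 of 19 rose and 1 fell, with Gnai3 at 0.52 ± 0.0867 and Arrb2, a beta-arrestin, at -0.31 ± 0.0794 (edgeR, adjusted p = 3.85e-05 and 0.00458). In the CD28 list 4 of 20 rose and 3 fell, led by Pik3r1, the regulatory subunit of phosphoinositide 3-kinase, at 0.67 ± 0.0917, and by Icosl, the ligand of ICOS, at -0.57 ± 0.138. Of 22 leukocyte G protein-coupled receptors none rose and 2 fell in both edgeR and DESeq2, Gpr132 at -0.59 ± 0.136 and Lpar6 at -0.37 ± 0.113. List medians were 0.06, 0.17 and -0.08, against -0.04 over all genes.

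Against the catalytic mutant, intact BE under vehicle had 2 rises and 4 falls in CCR2 signalling, 3 and 4 in the CD28 list, and 1 and 2 among leukocyte G protein-coupled receptors, where 21% of all genes passed. Ccr1 was higher, at 0.40 ± 0.126 (edgeR, adjusted p = 0.0207). With seBE under vehicle set against the catalytic mutant, no gene of these lists passed in edgeR, nor did more than 0.0267% of all genes. Between 1 and 4 genes a list had an unadjusted p under 0.05 there, and DESeq2 called 1 gene, in the CD28 list. Against nCas9, where 4.56% of all genes passed, seBE under vehicle had 3 rises and 2 falls among the 20 genes of the CD28 list, among them Pik3r1 at 0.43 ± 0.0917 (edgeR, adjusted p = 0.00546).

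With rapamycin in intact BE, 3.32% of all genes passed and no member did. In CCR2 signalling Pik3cg (0.33 ± 0.0845), Arrb2 (0.30 ± 0.0793) and Rgs1 (1.59 ± 0.453) rose and none of the 19 fell, in edgeR. In the CD28 list Tec, a kinase that acts in T cell and myeloid receptor signalling, rose by 0.71 ± 0.0886 (edgeR, adjusted p = 3.2e-06), and Cd274, which encodes PD-L1, by 0.76 ± 0.160 (edgeR, adjusted p = 0.00352). Hcar2 rose (1.61 ± 0.323) and Gpr65 fell (-0.99 ± 0.247) among the leukocyte G protein-coupled receptors. The rise of Tec was smaller in seBE, with a difference between the drug effects of -0.62 ± 0.126 (edgeR, adjusted p = 0.0184). With rapamycin in seBE no gene of the 4 lists passed in edgeR or DESeq2 or had an unadjusted p under 0.05 in edgeR.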

How the data were processed

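Total RNA of sorted cells was made into polyA, directional mRNA libraries, per the labels' protocols. The authors deposited 1 table of raw read counts per gene. Per the submitters' processing notes, fastp 1.0.1, STAR 2.7.1a, SAMtools 1.9, featureCounts from Subread 2.0.3, genome GRCm39 and DESeq2 were used. Not given in the sources used here are the annotation release, the strand setting and the handling of multi-mapping reads. Symbols matched 52073 of 56748 gene IDs.

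All 18 libraries entered 1 fit of 6 group means with edgeR 4.0.16 in R 4.3.3 (filterByExpr, TMM scaling, robust quasi-likelihood F test), with Benjamini-Hochberg adjustment over 14985 tested genes and a threshold of 0.05. The procedure was tested on simulated data. An SE is the log2 fold change divided by the square root of F. CPM use TMM-scaled library sizes, and log2 CPM a prior count of 2. The common biological coefficient of variation was 13.3%. Total counts of 13835979 to 23284932 per library set the depth.

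The members, gene lists and tests were chosen with earlier results of these data known. For that reason the catalytic mutant against nCas9, planned as a test, is given for the 4 members as a description. By rule, the text names the 4 members, their closest relatives, up to 4 genes past the threshold per list and comparison, up to 3 neighbouring genes on each side, and the 5 profiles most like each member's. Myb, Meis1 and Hoxa9 were named from the marker list. Malat1 was named after its values were seen. A relative of a member and 1 gene list are not reported here. Shared 50- and 100-base stretches were counted over GENCODE M21 transcripts, and identity came from blastn 2.17.0. Promoter windows came from RefSeq. Alternatives were DESeq2 1.42.0, 2 filters, 2 scalings, a fit of only the compared libraries, the replicate number as a block, and leaving out each library. Removal of a trend on transcript length and GC content, with values for 97.4% of tested genes, was added after the data were seen.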

Additional observations from a re-analysis of the deposited data

How the results depend on the processing

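The 12 tested rapamycin results on the 4 genes stayed on the same side of the threshold in 190 of 192 alternatives. The exceptions were both Ccr2 under rapamycin in intact BE. It passed at 0.26 with the length and GC trend removed and at 0.26 with the compared libraries alone. Alternatives re-fit the same libraries, all of which were in view when the 4 genes were named. That count is therefore no independent support for the rapamycin results. In the catalytic mutant against nCas9, over 14 alternatives, a description, Ccr2 ran from -0.71 to -0.49, Cd28 from -0.57 to -0.39 and Gpr141 from -0.83 to -0.56. Of 336 alternatives of the 24 other differences between constructs, 7 moved by more than the SD between libraries, all with the trend removed. Intact BE was then at 0.10 for Cd28 against nCas9, and at 0.41 for Ccr2, 0.49 for Cd28 and 0.45 for Gpr141 against the catalytic mutant. seBE was at 0.048 for Cd28 against the catalytic mutant, and at -0.37 for Ccr2 and -0.44 for Cd28 against intact BE. The cause was not tested.

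Counts over all genes moved more. For the catalytic mutant against nCas9 (644) they were 985 with a replicate block, 251 with the trend removed, 1014 by DESeq2, 423 with the compared libraries alone, and 122 to 748 with a library left out, lowest without nCas9 replicate 2. For rapamycin in intact BE (497) they were 873 with the compared libraries alone and 214 to 398 with a library left out. For the difference between drug effects (28) they were 66 with no filter, 65 with the block, 68 with the trend removed, 71 by DESeq2 and 11 to 56 with a library left out. For rapamycin in seBE they were 0 to 1 with a library left out. Any pairing of the samples by replicate number was weak, but its absence was not shown. Deviations of same-numbered libraries correlated at -0.069 to 0.115 (median 0.017), and those of different numbers at -0.094 to 0.063 (median -0.007). Of 18 libraries, 13 correlated best with a library of their own number. With the block, the catalytic mutant against nCas9 stood at -0.64 for Ccr2, -0.51 for Cd28, -0.72 for Gpr141 and 0.01 for Tagap1, and no call on the 4 genes under rapamycin changed.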
